A study of Mus musculus with 14 samples.

Results

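Transcripts of the mitochondrial respiratory chain were compared across mouse liver tumours that differed in 2 cyclin-dependent kinases, Cdk16 and Cdk18. The members were taken by gene symbol: the protein-coding genes of the mitochondrial genome and the nuclear genes whose symbols belong to the subunit series of complexes I to V, with named pseudogenes left out. Subunits under other symbols, such as Cyc1 of complex III, are not among them, so counts for a complex are over the members only. That rule found 105 genes among the 77981 rows of the count table, 13 of them in the mitochondrial and 92 in the nuclear genome. Of these, 92 reached 50 counts summed over the 14 libraries and were tested (8 mitochondrial and 84 nuclear), 7 had between 1 and 49 counts, and 6 had 0.

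The respiratory chain passes electrons from NADH (complex I) and succinate (complex II) through complex III to oxygen at complex IV, pumping protons that complex V uses to make ATP. Complexes I, III, IV and V are built from subunits of both genomes, whereas every subunit of complex II, which is also succinate dehydrogenase of the citric acid cycle, is nuclear. Mitochondrial mRNAs are cut from long polycistronic transcripts and carry short poly(A) tails, and each nuclear mRNA has its own promoter. Hepatocytes are rich in mitochondria, and liver tumours are known for shifts between respiration and glycolysis.

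Tumours had been started by hydrodynamic injection of plasmids for c-Myc and β-catenin, which reach hepatocytes in the living animal, and this holds for all groups. The 5 WT libraries carry the label WT, the 5 CDK18KO libraries the label CDK18KO, and the 4 DKO libraries carry the labels CDK16KO and CDK18KO. Floxed Cdk16 was deleted by tamoxifen-activated Cre-ERT2 in established tumours (75 mg/kg on 5 days, tissue taken 10 days later). The labels do not say which WT or CDK18KO animals received tamoxifen, nor the animals' age. In the comparisons of DKO, loss of Cdk16 and any difference in tamoxifen therefore cannot be told apart. Pieces of whole tumour were extracted, so fewer cells of a type and less RNA per cell cannot be told apart. Nothing in the labels states that the replicates of a group came from different mice, and the p-values measure the spread between these libraries.

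Libraries were made by 3′ mRNA sequencing, which primes on poly(A) and counts fragments near the end of each transcript. A value is therefore not divided by gene length, and levels are compared here between libraries and not between genes. Totals ran from 1442417 counts (WT 5) to 6068209 (WT 2), and values are given as CPM, counts scaled to a normalised library size of 1000000. Cdk16 stood at 40.9 to 71.0 CPM of the library total in WT, 30.0 to 68.4 in CDK18KO and 14.4 to 52.0 in DKO, and Cdk18 at 1.33 to 12.5, 0.880 to 3.63 and 0.449 to 4.21. The ranges overlap for both kinases, and edgeR gave Cdk18 a log2 fold change of -1.24 in CDK18KO against WT (adjusted p = 0.346) and Cdk16 one of -0.67 in DKO against WT (adjusted p = 0.321). 3′ counts check the genotype only where the deleted stretch includes the 3′ end, which the labels do not give. Hepatocyte markers summed to 109 to 2948 CPM in WT, 732 to 10203 in CDK18KO and 1222 to 18261 in DKO. All 15 tested markers of that list had counts in every library except Hnf4a, which was at 0 in WT 1, and the albumin gene Alb ranged from 85 counts (WT 1) to 10952 (DKO 1). Y-linked genes summed to 3.88 to 769 CPM in WT, 0.309 to 350 in CDK18KO and 0.641 to 2.75 in DKO. They passed 100 CPM in WT 3, WT 5 and CDK18KO 1, so the groups were not balanced for these genes. Fits without these libraries are given below, and the part of sex in the members' values was not tested otherwise.

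The mitochondrial genome was counted unevenly. Of its 13 protein-coding genes, mt-Cytb (cytochrome b of complex III) had 93569 counts over all libraries, mt-Nd4 88273, mt-Nd2 83572 and mt-Nd1 75304, whereas mt-Co2 had 2, mt-Atp6 5, mt-Co3 7, and mt-Nd4l and mt-Atp8 0. The proteins of the second set are core subunits of complexes IV, V and I. For 4 of these 5 genes (mt-Co2, mt-Atp6, mt-Co3 and mt-Nd4l) and for mt-Nd3, with 103 counts, the 3′ end is identical, without a mismatch over 294 to 299 aligned bases, to an annotated pseudogene on chromosome 1. Those pseudogenes lie side by side on the minus strand (GRCm38), from Gm10222 at chr1:24612407-24612700 through Gm28438, Gm28437 and Gm10925 to Gm28661 at chr1:24614885-24615565. The 60 bases below show the contrast between a gene with almost no counts and one with many. Bases 622 to 681 of mt-Co2 and the same stretch of Gm28661 are letter for letter the same, and bases 1084 to 1143 of mt-Cytb differ from the closest annotated copy, Gm11410 on chromosome 4, at 5 positions, which are set in capitals.
mt-Co2: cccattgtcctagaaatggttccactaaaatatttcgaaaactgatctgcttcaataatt
Gm28661: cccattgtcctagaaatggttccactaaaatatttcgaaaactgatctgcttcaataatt
mt-Cytb: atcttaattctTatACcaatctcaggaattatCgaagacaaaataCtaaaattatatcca
Gm11410: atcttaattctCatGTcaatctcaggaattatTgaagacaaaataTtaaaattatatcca

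Over the whole gene, 99.4% of the read-length windows (151 bases) of mt-Co2 and of mt-Atp6, 99.8% of mt-Co3, 98.0% of mt-Nd4l and 97.0% of mt-Nd3 recur letter for letter in another annotated transcript. None of the windows of mt-Cytb, mt-Nd1, mt-Nd2, mt-Nd5 or mt-Nd6 do. The sources used here do not give how reads with more than 1 place in the genome were counted. A pair of genes did not follow the split by annotated copies. The last 300 bases of mt-Co1 (catalytic subunit of complex IV) are identical to Gm29216, yet mt-Co1 had 40059 counts, with 23.6% of its windows copied over its whole length. In contrast, the closest annotated copy of mt-Atp8 was only 81.4% identical over 167 bases, and mt-Atp8 had 0 counts in 14 libraries. Copies were searched among annotated transcripts only. In the mitochondrial genome mt-Atp8 starts at base 7766, between the end of mt-Co2 (7696) and the start of mt-Atp6 (7927). Whether the stretch between their copies on chromosome 1, Gm28661 and Gm10925, holds a copy of mt-Atp8 was not tested. The end of mt-Atp8 (base 7969) lies inside mt-Atp6 (7927 to 8607), and that of mt-Nd4l (base 10173) inside mt-Nd4 (10167 to 11544), on the same strand. The part of this overlap in the 0 counts of both genes was not tested. mt-Nd4 had 59.1% of its windows copied but none within its last 300 bases. Low counts of mt-Co2, mt-Co3, mt-Atp6, mt-Nd4l, mt-Nd3 and mt-Atp8 were therefore not read as low expression. The summed mitochondrial values below rest almost wholly on mt-Nd1, mt-Nd2, mt-Nd4, mt-Nd5, mt-Cytb and mt-Co1.

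**Figure D1:**
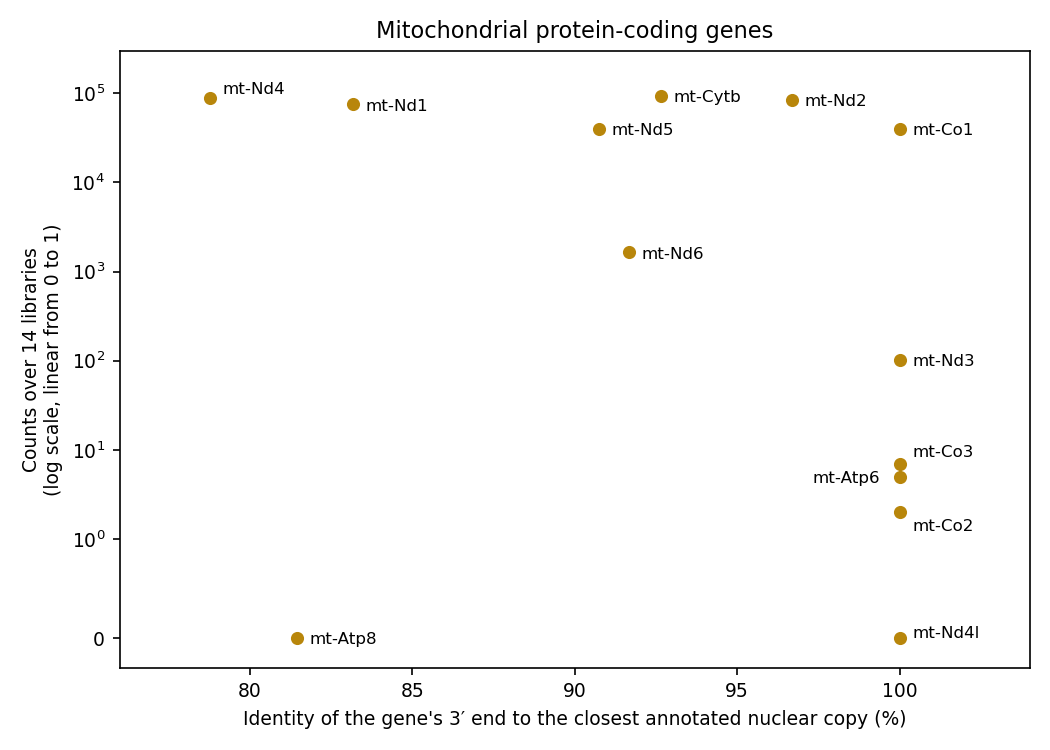
Counts of each mitochondrial protein-coding gene over the 14 libraries (vertical axis, log scale above 1) against the identity of its 3′ end, in percent, to the closest annotated nuclear copy. At 100% identity, 5 genes lie at 103 counts or fewer and mt-Co1 at 40059; mt-Atp8 is at 0 with a copy of 81.4%.

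Mitochondrial mRNA summed to 9332, 6489, 6886, 6539 and 14456 CPM in WT 1 to 5. In CDK18KO 1 to 5 it summed to 7121, 18373, 8342, 14052 and 14982, and in DKO 1 to 4 to 10441, 16268, 7320 and 21252. WT 5 lay as high as the upper CDK18KO libraries, and CDK18KO 1, CDK18KO 3 and DKO 3 lay within the range of the other WT libraries, so all 3 groups overlap. The means were 8741 ± 3405 in WT (SD, n = 5), 12574 ± 4724 in CDK18KO (SD, n = 5) and 13820 ± 6189 in DKO (SD, n = 4).

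The nuclear members summed to 11605, 14500, 18495, 9783 and 12403 CPM in WT 1 to 5. They summed to 13493, 20006, 13931, 17889 and 22340 in CDK18KO 1 to 5, and to 17722, 18024, 10946 and 15540 in DKO 1 to 4. The ratio of the mitochondrial to the nuclear sum ran from 0.372 (WT 3) to 1.17 (WT 5) in WT, from 0.528 to 0.918 in CDK18KO and from 0.589 to 1.37 in DKO. It separated no group from another. The balance between complexes was steadier: of the nuclear sum, complex I made up 29.2 to 35.1% in the 14 libraries, complex II 3.60 to 6.18%, complex III 10.2 to 13.1%, complex IV 17.7 to 20.6% and complex V 28.4 to 35.8%.

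**Figure D2:**
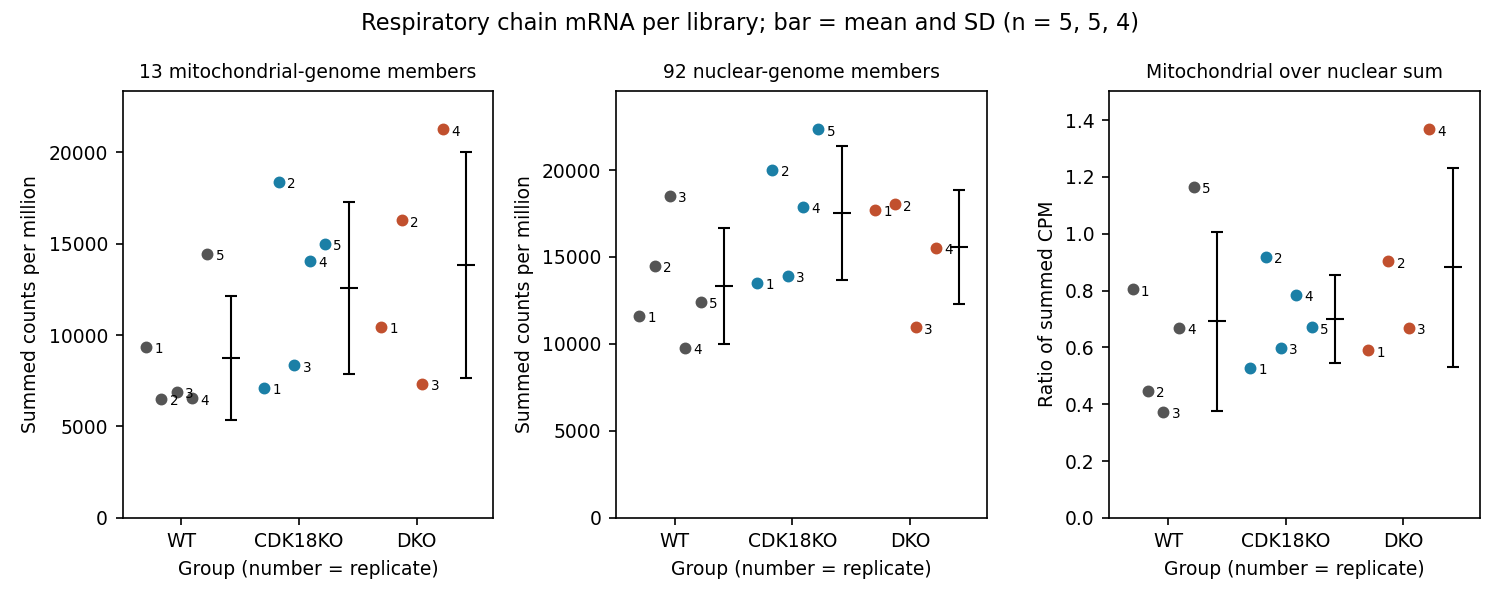
Summed CPM of the 13 mitochondrial and the 92 nuclear members, and the ratio of both sums, in each library (points, numbered by replicate) with the mean and SD of each group. The 3 groups overlap in every panel; WT 3 has the lowest ratio (0.372) and DKO 4 the highest (1.37).

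The mitochondrial ribosomal RNAs mt-Rnr1 and mt-Rnr2 varied more than the mRNAs. Their sum was lowest in WT 3 (4259 CPM), DKO 1 (6510), WT 2 (6655) and CDK18KO 5 (16393), and lay between 25298 and 69514 in the other 10. The same 4 libraries were lowest for mt-Nd6, the only protein-coding gene of the mitochondrial light strand, at 6.16, 16.2, 12.7 and 21.9 CPM against 31.9 to 95.6 elsewhere. They were not the lowest for nuclear members, where CDK18KO 5 was highest of all. Within the mitochondrial sum, mt-Nd4 took 30.5% in WT 3 and 28.4% in DKO 1 but 14.1% in DKO 4, and mt-Co1 took 4.26% and 5.18% in the first pair and 15.5% in DKO 4. The part of these differences in the results below was not tested.

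Loss of Cdk18 alone was addressed by CDK18KO against WT. No member passed an adjusted p of 0.05 in edgeR's quasi-likelihood test, which called 1 of 16440 genes (0.00608%), or in DESeq2, which called 5.64% of all genes. At an unadjusted p under 0.05, 10 of 92 members were higher (10.9%, against 10.8% of all genes) and 1 was lower (1.09%, against 6.13%). No member had all CDK18KO libraries above or below all WT libraries, where 1.02% of all genes were wholly higher and 1.77% wholly lower. The share of higher members was thus near that of all genes. Fitted values lay mostly to one side all the same: the median log2 fold change was 0.57 over the 8 mitochondrial and 0.37 over the 84 nuclear members, against -0.03 over all genes. Above 0 lay 79 of 84 nuclear members and 48.2% of all genes. The members share the same libraries, so such tallies do not count independent results. Within groups, the pooled SD between libraries of the mean log2 CPM was 0.60 for the mitochondrial and 0.34 for the nuclear members. The test was also run on counts simulated with the spread fitted over all genes, with changes set in genes drawn at random. It recovered 0% of 1.5-fold, 4% of 2-fold and 18% of 4-fold changes, each over 50 genes. These shares hold for genes drawn from the whole table, and the share for the members themselves was not measured.

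Each nuclear complex had a positive median in this comparison: 0.42 for complex I (37 of 38 members above 0), 0.64 for complex II (4 of 4), 0.58 for complex III (8 of 8), 0.34 for complex IV (15 of 16) and 0.33 for complex V (15 of 18). Hepatocyte markers lay on the same side, with a median of 2.32 over 15 tested genes, 7 of them higher at an unadjusted p under 0.05. In stromal cells the opposite held: 13 markers of stellate cells and fibroblasts centred on -1.66, 7 of them lower at that p, and summed to 543 to 1423 CPM in WT and 56.3 to 991 in CDK18KO. Markers of cholangiocytes and liver progenitors centred on -1.72, 3 of 8 lower at that p, with sums of 240 to 537 CPM in WT and 40.6 to 384 in CDK18KO. The part of any of these cell types in the members' values was not tested.

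**Figure D3:**
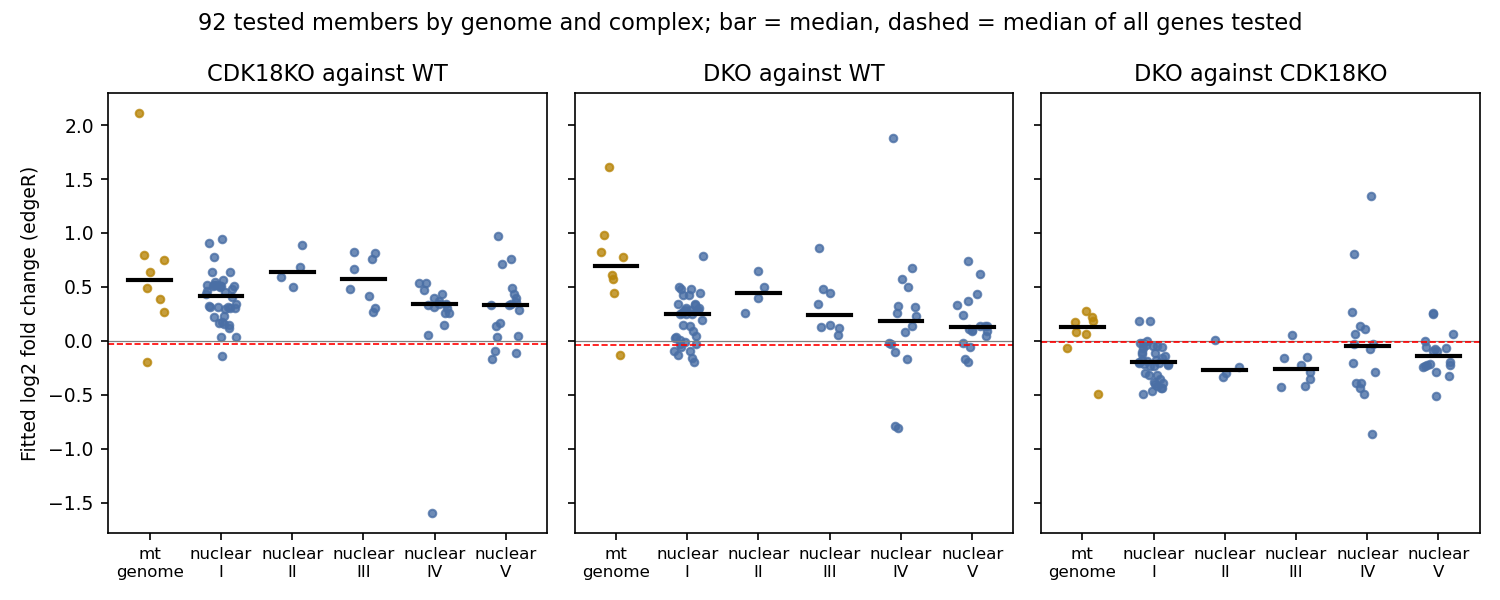
Fitted log2 fold changes of the 92 tested members in the 3 comparisons, split into the mitochondrial genome and nuclear complexes I to V (points), with the median of each class (bars) and of all genes tested (dashed). Medians against WT lie above 0 in every class, and the nuclear medians of DKO against CDK18KO lie below 0.

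Complex III held the member with the smallest p. Uqcrc2, a core protein of that complex (chr7:120635176-120659524, plus strand), stood at 119, 185, 173, 98.8 and 157 CPM in WT 1 to 5 and at 191, 320, 162, 316 and 312 in CDK18KO 1 to 5. Only CDK18KO 3 lay inside the WT range, and 3 CDK18KO libraries lay at 312 or above. The log2 fold change was 0.83 (SE 0.26, adjusted p = 0.161 in edgeR). Of its 3′ windows, 52.9% lie in the overlapping gene Pdzd9, and no label states the strand setting of the deposited count. The other members of complex III reached a log2 fold change of up to 0.81 (Uqcrq, adjusted p = 0.350) and down to 0.27 (Uqcrc1, the other core protein, adjusted p = 0.579).

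In complex I, Ndufa12, an accessory subunit on the arm that faces the matrix, stood at 106, 64.8, 50.8, 105 and 95.6 CPM in WT 1 to 5. It stood at 208, 176, 161, 170 and 94.9 in CDK18KO 1 to 5, where all but CDK18KO 5 lay above every WT library. Its log2 fold change was 0.94 (SE 0.32, adjusted p = 0.171), and 18.3% of its 3′ windows recur in the pseudogene Gm15920. Ndufa6, another accessory subunit, averaged 237 ± 86.5 CPM in WT (SD, n = 5) and 443 ± 168 in CDK18KO (SD, n = 5), a log2 fold change of 0.90 (adjusted p = 0.232). Ndufc1 followed with 0.64 (adjusted p = 0.216) and the iron-sulphur subunit Ndufv2 with 0.48 (adjusted p = 0.282). The core subunit Ndufs1 had 0.51 (adjusted p = 0.365).

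Complex II is small enough to give whole. Sdhd, a membrane anchor, stood at 71.7, 75.1, 114, 51.1 and 127 CPM in WT 1 to 5 and at 101, 273, 86.2, 92.8 and 260 in CDK18KO 1 to 5. CDK18KO 2 and CDK18KO 5 lay far above every WT library, and the other 3 lay within the WT range. The log2 fold change was 0.89 for Sdhd (SE 0.37, adjusted p = 0.247), 0.59 for the other anchor Sdhc (adjusted p = 0.273), 0.69 for the iron-sulphur subunit Sdhb (adjusted p = 0.428) and 0.50 for the flavoprotein Sdha (adjusted p = 0.366).

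Complex V had members on both sides of 0. Atp5mc1 and Atp5mc2 encode the same mature c subunit of the rotor with different import sequences, and Atp5pb encodes a peripheral stalk subunit. Atp5mc1 averaged 87.1 ± 37.0 CPM in WT (SD, n = 5) and 148 ± 24.3 in CDK18KO (SD, n = 5), a log2 fold change of 0.76 (adjusted p = 0.224), and 29.1% of its 3′ windows recur in Gm10039. Atp5pb had 0.71 (adjusted p = 0.262). The catalytic subunits Atp5f1a and Atp5f1b had 0.33 each (adjusted p = 0.430 and 0.450). Atp5mg (-0.17), Atp5f1e (-0.11) and Atp5mk (-0.09) were the 3 members below 0, with adjusted p of 0.741, 0.848 and 0.930.

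In complex IV a single member lay below 0. Ndufa4l2, a hypoxia-inducible relative of the complex IV subunit Ndufa4, stood at 9.56, 11.2, 4.11, 1.55 and 8.28 CPM in WT 1 to 5 and at 5.32, 1.05, 1.85, 0.663 and 2.33 in CDK18KO 1 to 5. Of the CDK18KO libraries, 3 lay between 1.05 and 2.33 and CDK18KO 4 below that, while WT 4 was as low as these. Its log2 fold change of -1.59 (SE 0.68, adjusted p = 0.250) was the lowest of all members, on 215 counts in total. Ndufa4 itself had 0.30 (adjusted p = 0.621). The other subunits of complex IV kept to a narrow band, from 0.06 (Cox6c2) to 0.54 (Cox6a1, adjusted p = 0.353).

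Among mitochondrial genes, mt-Nd3 had the largest fitted value in CDK18KO against WT (2.11, SE 0.73, adjusted p = 0.179), but on 103 counts, 0.368 to 2.26 CPM in WT and 2.16 to 7.91 in CDK18KO. The well-counted genes followed at 0.79 (mt-Nd5), 0.75 (mt-Nd2), 0.64 (mt-Nd1), 0.49 (mt-Co1), 0.39 (mt-Cytb) and 0.27 (mt-Nd4), with adjusted p from 0.298 to 0.725. mt-Nd6, read from the opposite strand, stood at -0.20 (adjusted p = 0.901).

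Combined loss of Cdk16 and Cdk18, with any difference in tamoxifen, was addressed by DKO against WT. Again no member passed an adjusted p of 0.05 in edgeR (0.00608% of all genes) or in DESeq2 (6.58%). At an unadjusted p under 0.05, 4 of 92 members were higher (4.35%, against 13.1% of all genes) and 0 were lower (5.26%). A single member, Atp5mc2 of complex V, had all DKO libraries above all WT libraries (2.95% of all genes did, and 2.47% were wholly lower). Atp5mc2 averaged 2.33 ± 0.386 CPM in DKO (SD, n = 4) and 1.37 ± 0.443 in WT (SD, n = 5), on 86 counts in total, with 39.5% of its 3′ windows copied elsewhere, and its adjusted p was 0.439. The medians were 0.69 over the mitochondrial and 0.24 over the nuclear members, against -0.04 over all genes. Above 0 lay 65 of 84 nuclear members and 47.8% of all genes.

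By complex, the nuclear medians of DKO against WT were 0.25, 0.45, 0.24, 0.18 and 0.12 for complexes I to V. DKO 1 and DKO 2 carried RNA of skeletal muscle: the markers of muscle and brown fat summed to 278 and 85.4 CPM there, 1.28 and 7.69 in DKO 3 and DKO 4, 0.310 to 3.04 in WT and 0 to 26.2 in CDK18KO. Acta1 (skeletal actin) had 358 counts in DKO 1, 60 in DKO 2 and 77 in CDK18KO 4, and Myh1, Myh2 and Mb had 166, 154 and 143 in DKO 1. The brown fat genes Ucp1 and Cidea had at most 2 counts in any library. Without DKO 1 and DKO 2, which left only DKO 3 and DKO 4 in the group, the nuclear median was -0.09 and that of complex I -0.29, opposite in sign. The mitochondrial median was 0.77 there. Hepatocyte markers summed to 9474 and 18261 CPM in DKO 1 and DKO 2, above the other DKO and all WT libraries, although CDK18KO 2 (10203) lay above DKO 1. Their median in DKO against WT was 3.31, with 12 of 15 higher at an unadjusted p under 0.05. Markers of stellate cells and fibroblasts centred on -0.21 in DKO against WT (2 of 13 lower at that p). Those of cholangiocytes and progenitors centred on 0.46, with 0 of 8 higher or lower at that p. The part of muscle RNA or of any of these cell types in the members' values was not tested.

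The member with the smallest p was Cox7a1, the heart and muscle isoform of a small complex IV subunit (chr7:30184144-30186078, plus strand). It stood at 1.47, 5.67, 4.40, 1.86 and 0.753 CPM in WT 1 to 5, and at 28.2, 7.81, 2.24 and 5.49 in DKO 1 to 4. DKO 1 alone lay above 7.81 CPM, and DKO 3 and DKO 4 lay within the WT range. The log2 fold change was 1.88 (SE 0.70, adjusted p = 0.178). Its liver-type partner Cox7a2 averaged 165 ± 32.2 CPM in WT (SD, n = 5) and 182 ± 25.6 in DKO (SD, n = 4), at 0.14 (adjusted p = 0.743).

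**Figure D4:**
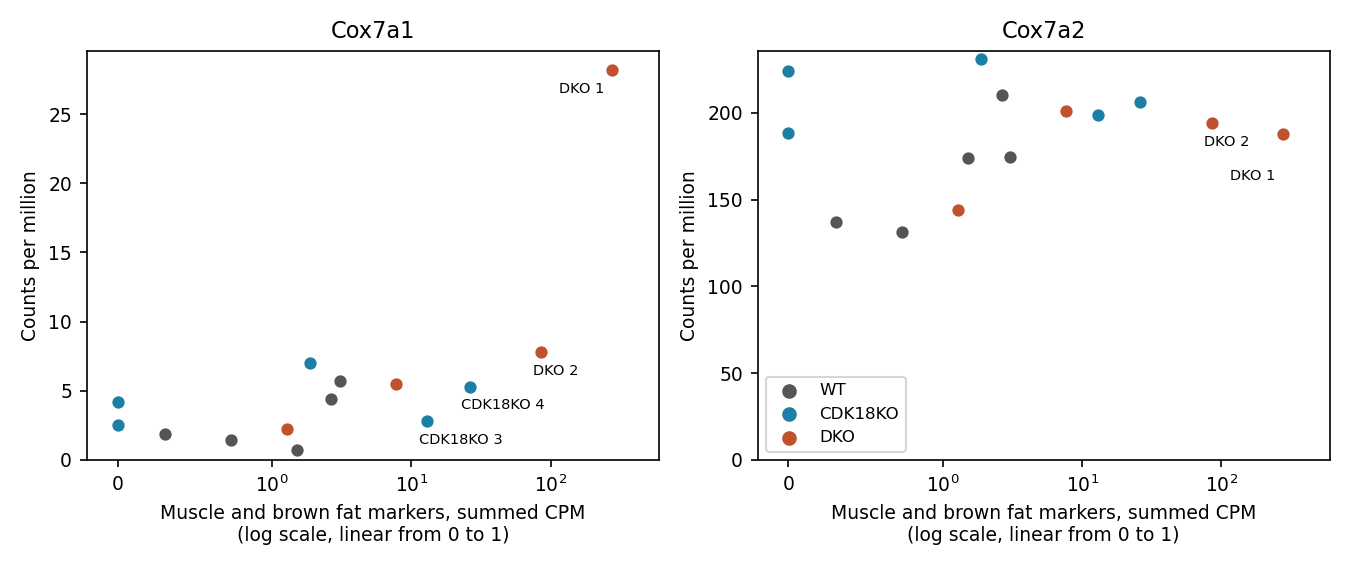
CPM of Cox7a1 (left) and Cox7a2 (right) in each library against the summed CPM of 10 muscle and brown fat markers (log scale above 1). DKO 1, with marker CPM of 278, has Cox7a1 at 28.2 CPM and all other libraries lie at 7.81 or below; Cox7a2 in DKO 1 lies within the range of the rest.

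Further muscle isoforms were too rare to test. Cox6a2 had 17 of its 40 counts in DKO 1 and 9 in CDK18KO 2, which is 4.84 and 4.75 CPM, and CDK18KO 2 had 0 counts of the muscle and brown fat markers. Cox8b had 9 of its 10 counts in DKO 1, and Cox4i2, which is known as an oxygen-responsive isoform, had 18 of 43 there. Their widely expressed partners Cox6a1, Cox8a and Cox4i1 had log2 fold changes of 0.68 (adjusted p = 0.248), -0.17 (adjusted p = 0.778) and 0.31 (adjusted p = 0.582). Cox6a1 stood at 78.3, 108, 139, 61.0 and 68.5 CPM in WT 1 to 5 and at 169, 208, 97.1 and 110 in DKO 1 to 4, with DKO 1 and DKO 2 above every WT library and DKO 3 and DKO 4 inside the WT range. Cox6b1 and Cox6b2, the latter known from testis, had -0.02 and 0.49 (adjusted p = 0.985 and 0.807).

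Of the 4 members at an unadjusted p under 0.05, Cox7a1 and Cox6a1 are nuclear, and mt-Nd2 and mt-Nd5 are mitochondrial. mt-Nd2 read 1869, 1136, 1108, 1371 and 2396 CPM in WT 1 to 5 and 1769, 3907, 1481 and 4030 in DKO 1 to 4. DKO 2 and DKO 4 lay above all WT libraries and the other 2 within them, for a log2 fold change of 0.83 (SE 0.37, adjusted p = 0.252). mt-Nd5 had 0.98 (adjusted p = 0.269), mt-Co1 0.77 (0.487), mt-Cytb 0.61 (0.396), mt-Nd1 0.58 (0.444) and mt-Nd4 0.45 (0.523), the value in brackets being the adjusted p. mt-Nd6 had -0.14 (adjusted p = 0.926). DKO 4, with the highest mitochondrial sum, stood apart for mt-Co1, which read 3295 CPM there and 541 to 1342 in the other DKO libraries, and whose log2 fold change without DKO 4 was -0.04.

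**Figure D5:**
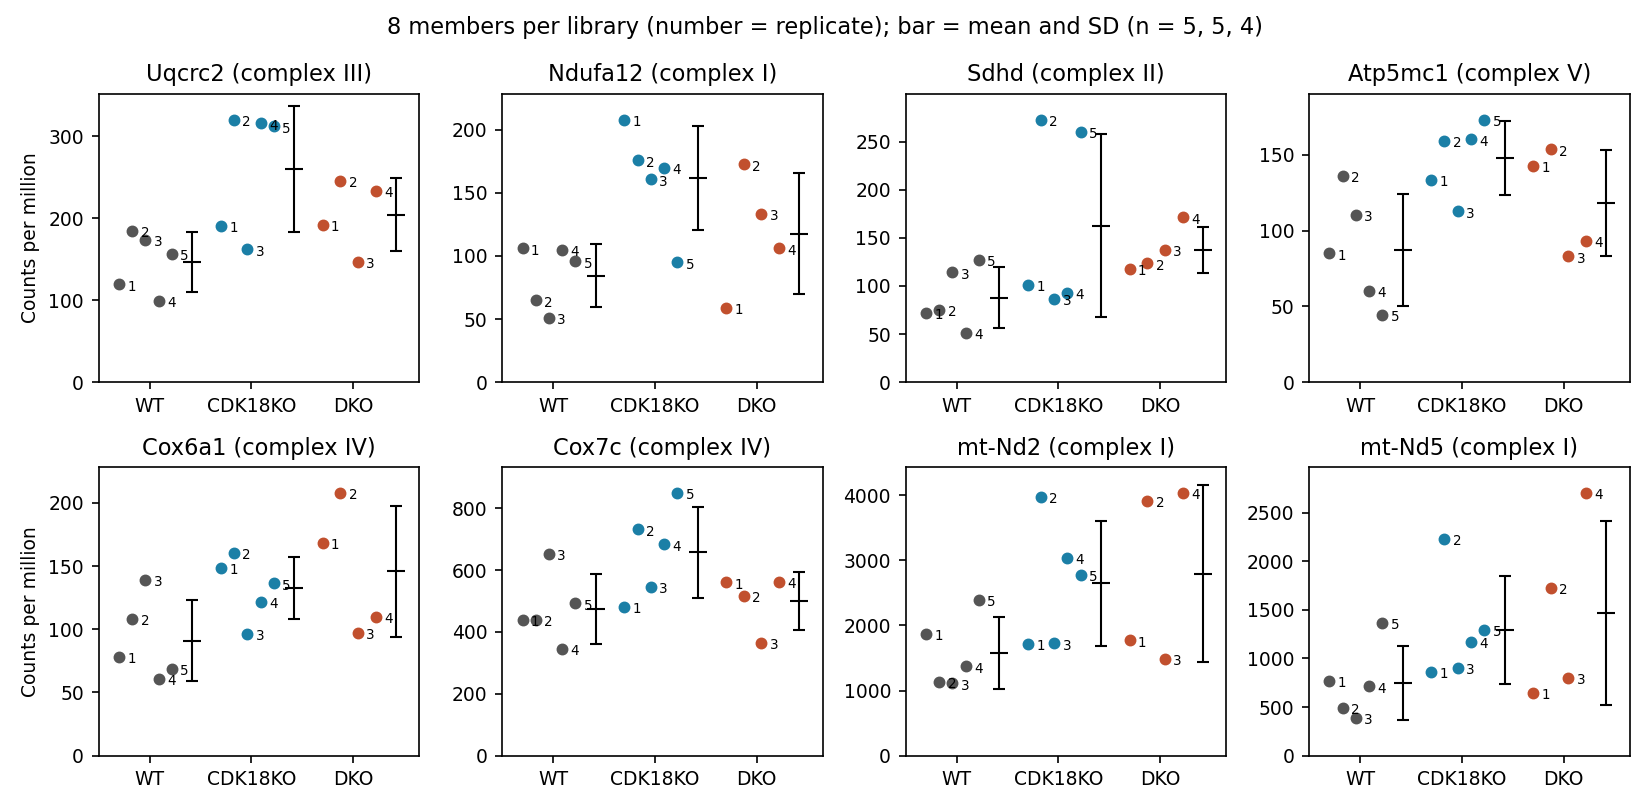
CPM of 8 members in each library (points, numbered by replicate) with the mean and SD of each group, on linear axes from 0. For Uqcrc2 and Ndufa12 most CDK18KO libraries lie above the WT libraries, whereas the DKO libraries of mt-Nd2 and mt-Nd5 split, with DKO 2 and DKO 4 high and DKO 1 and DKO 3 low.

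In nuclear complex I, DKO against WT gave its smallest p for Ndufa6 (log2 fold change 0.79, adjusted p = 0.288), followed by Ndufs4 (0.48, adjusted p = 0.339) and Ndufa7 (0.50, adjusted p = 0.353). Complex II stood at 0.65 (Sdhd), 0.50 (Sdha), 0.39 (Sdhb) and 0.26 (Sdhc), with adjusted p from 0.360 to 0.659. In complex III the small subunit Uqcrq had 0.86 (adjusted p = 0.317), Uqcrc2 0.48 (adjusted p = 0.371) and Uqcrb 0.44 (adjusted p = 0.516). In complex V, Atp5pb had 0.62 (adjusted p = 0.324) and Atp5mc3 0.37 (adjusted p = 0.414).

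What loss of Cdk16, with any difference in tamoxifen, added to loss of Cdk18 was addressed by DKO against CDK18KO. No member passed, in edgeR (0% of all genes) or in DESeq2 (0.736%), and 0 of 92 members reached an unadjusted p under 0.05, where 5.07% of all genes were higher and 1.9% lower. No member separated the groups (1.09% of all genes were wholly higher, 0.706% wholly lower). The median was 0.13 over the mitochondrial members and -0.20 over the nuclear members, beside -0.01 over all genes. Above 0 lay 13 of 84 nuclear members and 49.1% of all genes. By complex the nuclear medians were -0.20, -0.27, -0.26, -0.05 and -0.14 for I to V. Hepatocyte markers lay on the other side from the nuclear members here, with a median of 0.85 and 13 of 15 above 0. Ranges across libraries were wide: without DKO 4 the mitochondrial median was -0.35, and without DKO 3 it was 0.33. The nuclear median was -0.06 without DKO 3. It was -0.46, and that of complex I -0.67, without DKO 1 and DKO 2, which left DKO 3 and DKO 4. The libraries left out there carried muscle RNA and also had the highest hepatocyte sums of the DKO group (9474 and 18261 CPM). Which of these traits matters was not tested.

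Single members gave little more in that comparison. Cox7a1 had the smallest p, with a log2 fold change of 1.34 (SE 0.70, adjusted p = 0.785) that became -0.19 without DKO 1 and DKO 2. Ndufa10 had -0.44 (adjusted p = 0.831) and Cox8a -0.49 (adjusted p = 0.857). Because CDK18KO against WT and DKO against WT share the WT libraries, their values are only set side by side: the mitochondrial medians were 0.57 and 0.69, and the nuclear medians 0.37 and 0.24.

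The genes around the chain were read from lists of assembly factors, carriers and expression machinery. In CDK18KO against WT, the electron carriers and the enzymes of quinone synthesis had a median of 0.66, with 6 of 15 (40%) higher at an unadjusted p under 0.05, where 10.8% of all genes were. Coq8a, an atypical kinase-like protein of coenzyme Q synthesis, had 2.98 (adjusted p = 0.153) and Coq9 1.20 (adjusted p = 0.153). Assembly factors of complexes II to V had a median of 0.57 (7 of 30, 23.3%, higher at that p), among them the copper chaperones of complex IV Sco2 (1.05, adjusted p = 0.153) and Cox17 (1.0, adjusted p = 0.153). Genes for upkeep and transcription of mitochondrial DNA had 0.55 (6 of 14 higher, 42.9%), with Tfb1m at 1.03 (adjusted p = 0.169) and the transcription factor Tfb2m at 1.12 (adjusted p = 0.212).

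The other lists had lower medians, and for the ribosome, import, RNA processing and the regulators the share at that p (6.25 to 10.5%) was no higher than that of all genes. Complex I assembly factors had a median of 0.28 (2 of 14, 14.3%, higher at an unadjusted p under 0.05, Timmdc1 at 1.03 with an adjusted p of 0.184 and Foxred1 at 0.90 with 0.281). Mitochondrial RNA processing had 0.36 (1 of 16, Lrpprc at 0.94 with an adjusted p of 0.157; Hsd17b10 stood at 0.76), the mitochondrial ribosome 0.20 (6 of 77, Mrps27 at 0.77 and Mrpl42 at 0.57), and import with the outer membrane 0.27 (2 of 19, the chaperones Hspd1 at 0.75 and Hspa9 at 0.65). Citric acid cycle genes had 0.40 (4 of 17 higher, 23.5%, and 1 lower, Suclg2 at 0.90 with an adjusted p of 0.153 and Idh3b at 0.83 with 0.162). The regulators had 0.01, and Ppara, the fatty acid receptor of hepatocytes, was their single gene under that p at 3.48 (adjusted p = 0.153), beside Ppargc1b at 0.83 (adjusted p = 0.380). None of these genes passed in edgeR.

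In DKO against WT, where 13.1% of all genes were higher at that p and 5.26% lower, the carriers had a median of 0.41 (4 of 15 higher, 26.7%, Etfa at 1.39 with an adjusted p of 0.164 and Coq8a at 2.39 with 0.173) and the assembly factors of complexes II to V 0.24 (4 of 30 higher, 13.3%, Coa6 at 1.17 and Sdhaf4 at 1.12, both with an adjusted p of 0.164 or less). The mitochondrial ribosome lay at -0.03 (0 of 77 higher and 1 lower, Mrps9 at -0.50 with an adjusted p of 0.204) and import at -0.13 (0 higher and 1 of 19 lower, Tomm40, the pore of the outer membrane, at -0.58 with 0.251). Complex I assembly factors had 0.07 (1 of 14, Timmdc1 at 0.86), mitochondrial DNA upkeep 0.16 (0 higher and 1 of 14 lower, Ssbp1 at -0.50), RNA processing 0.03 (0 of 16), the citric acid cycle 0.31 (1 of 17, Suclg2 at 0.68) and the regulators -0.14 (1 of 12, Ppara at 3.29 with 0.150). DKO against CDK18KO had negative medians in all 9 lists, from -0.41 (mitochondrial DNA upkeep) to -0.14 (regulators). At an unadjusted p under 0.05 it had 4 ribosomal genes lower of 77 (5.19%, against 1.9% of all genes), 2 of 19 for import (10.5%), and Cycs (cytochrome c, -0.74, adjusted p = 0.439) and Cox17 (-0.77, adjusted p = 0.614) as the only ones of their lists.

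Promoters were read because nuclear members share regulators. RefSeq (GRCm38.p6) held an entry of 300 bases, from 250 before to 50 after the start, for 67 of the 84 tested nuclear members. The motif of NRF1, a known activator of respiratory genes, was searched as GCGCA, any base, then GCGC. It occurred on either strand in 17 of these (25.4%), against 5.19% of all promoters and 10.5% of those of tested genes. The motif AANATGGCG of YY1 occurred in 10 (14.9%, against 5.44% of tested genes), TNAAGGTCA of the oestrogen-related receptors in 3 (4.48%, against 0.960%), CCGGAAGT of GABP in 5 (7.46%, against 8.39%) and the Myc E-box CACGTG in 6 (8.96%, against 11.3%). Members with the NRF1 motif had a median log2 fold change of 0.34 in CDK18KO against WT and 0.25 in DKO against WT, beside 0.39 and 0.15 without it, and those with the E-box 0.47 and 0.40, beside 0.35 and 0.15. A match describes the letters only. The 2 promoters shown belong to members with a high value in both knockouts, at chr15:82354242-82354541 (Ndufa6) and chr9:50603800-50604099 (Sdhd), both on the minus strand and printed 5′ to 3′ along the gene. They do not stand for all such members: Atp5pb, also above 0 in both, holds the E-box and no NRF1 match. Capitals mark the NRF1 motif in each, read on the other strand in Ndufa6 and as printed in Sdhd. Near the end of Sdhd they mark the motif of the oestrogen-related receptors, read on the other strand.
Ndufa6: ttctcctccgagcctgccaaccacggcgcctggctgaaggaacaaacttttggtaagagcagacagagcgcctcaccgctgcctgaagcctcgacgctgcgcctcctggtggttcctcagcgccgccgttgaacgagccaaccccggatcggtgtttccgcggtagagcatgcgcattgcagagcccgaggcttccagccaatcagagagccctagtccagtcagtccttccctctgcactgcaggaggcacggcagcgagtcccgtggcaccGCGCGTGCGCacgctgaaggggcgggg
Sdhd: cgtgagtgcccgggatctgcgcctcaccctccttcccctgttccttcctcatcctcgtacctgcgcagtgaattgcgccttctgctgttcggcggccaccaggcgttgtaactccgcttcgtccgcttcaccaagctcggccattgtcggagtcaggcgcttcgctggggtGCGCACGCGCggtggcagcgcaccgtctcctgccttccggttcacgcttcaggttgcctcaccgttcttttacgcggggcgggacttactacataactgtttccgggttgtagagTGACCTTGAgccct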

How the data were processed

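Raw counts per gene were deposited by the authors as 1 table of 77981 rows. The submitters' processing notes list STAR 2.7.11a, HTSeq 1.99.2, UMI-tools 1.1.2 and, beside these, DESeq2 1.32.0; whether molecular identifiers were collapsed, the annotation and the treatment of reads with several places are not given in the sources used here. Genes with 50 or more summed counts (16440, 99.5% of counts) entered edgeR 4.0.16 (TMM factors, quasi-likelihood test, two-sided, all groups in 1 fit, Benjamini-Hochberg over all genes). DESeq2 1.42.0 and limma 3.58.1 served as alternatives. CPM values use TMM library sizes. The test was run on simulated counts with known changes.

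The members and lists were chosen with earlier results of these data known. Named genes are the mitochondrial genes, the 3 smallest p of each nuclear complex, the Sdh genes, 6 isoform pairs and the 2 smallest p of each list; other members were named after their values were seen, and 1 gene that the rule names is not reported here. Copied windows were searched letter for letter over the last 500 bases of nuclear transcripts (whole mitochondrial genes) in GENCODE M21 (GRCm38), aligned with blastn 2.17.0. Symbols matched for 84 members, a synonym for 16. The notes name mm10, the same build, and GRCh38, without saying for what. Replicate numbers did not pair the libraries.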

Additional observations from a re-analysis of the deposited data

Results flagged for a closer look

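Within a group, 44 quantities (the named members and the class sums) were searched for a library set apart from the rest by Dixon's gap ratio, which flags about 1 in 20 groups by chance; 3 of 132 groups were. Cox6b2, an isoform of complex IV known from testis, stood at 11.1 CPM in CDK18KO 3, with the next library at 1.58. mt-Co1 stood at 1986 CPM in WT 5, with the next WT library at 778. Atp5mc2 stood at 0.620 CPM in WT 4, below the other WT libraries, which began at 1.47, on 86 counts over all libraries.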

How the results depend on the processing

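No member passed the adjusted threshold under any alternative run: other tests, scaling factors, filters, replicate sets, and the set without DKO 1 and DKO 2, chosen after seeing the data. That set kept DKO 3 and DKO 4 as its only DKO libraries. Counts at an unadjusted p under 0.05 moved. For CDK18KO against WT (11), it was 7 with upper-quartile factors, 17 without the 3 libraries above 100 CPM of Y-linked genes, and 3 (without WT 1) to 22 (without WT 3) when 1 library was left out. For DKO against WT (4), it was 1 with upper-quartile factors, 2 when scaling left out the mitochondrial genome, 8 with no filter, 15 with limma voom and 2 without DKO 1 and DKO 2, and 1 (without WT 1) to 8 (without DKO 3) with 1 library left out. For DKO against CDK18KO (0), it was 2 with no filter, 3 without DKO 1 and DKO 2, and 0 to 1 with 1 library left out.

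With 1 library left out, the mitochondrial median ran from 0.41 to 0.90 in CDK18KO against WT and from 0.36 to 0.97 in DKO against WT, and the nuclear median from 0.25 to 0.52 and from 0.07 to 0.34. In DKO against CDK18KO the nuclear median ran from -0.27 (without CDK18KO 1) to -0.06 (without DKO 3). Of all alternatives, the set without the 3 libraries above 100 CPM of Y-linked genes gave the highest medians in CDK18KO against WT. They were 0.98 over the mitochondrial and 0.57 over the nuclear members. Over all alternatives, 75 of 3063 values of named genes changed sign, and 27 of the 146 named values did so at least once. In 13 of these cases the value also moved by more than 1 SE. Without DKO 1 and DKO 2, DKO against WT gave -0.44 for Sdhb, -0.0094 for Cox4i1, -0.13 for Uqcrb and 0.032 for Mtpap, and DKO against CDK18KO gave 0.30 for mt-Nd3, -0.36 for Cox6a1, -0.19 for Cox7a1 and -0.033 for Ndufa4. With 1 library left out, Cox6b2 ran from -1.12 (without CDK18KO 3) to 0.71 in CDK18KO against WT, and mt-Co1 from -0.040 (without DKO 4) to 1.34 in DKO against WT. In DKO against CDK18KO, mt-Co1 ran from -0.54 and mt-Nd5 from -0.35 (both without DKO 4) to 0.56 and 0.44, and Pprc1 from -0.71 to 0.082 (without CDK18KO 5). The cause was not tested. DESeq2 called 9 genes of the surrounding lists in 1 or more comparisons (Sco2, Cox17, Coq8a, Coq9, Etfdh, Lrpprc, Ppara, Suclg2 and Mrps9) and no member.

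Replicate numbers shared between groups did not act as pairs: of 13 same-number pairs, 5 had a correlation of deviations over 0.1 (range -0.20 to 0.61), and 3 of 14 libraries correlated best with their own number. With the replicate number as a block, 9, 3 and 0 members reached an unadjusted p under 0.05 in the 3 comparisons and 0 passed adjustment, and of the named genes Ppara passed. How depth and the spread between libraries each limit the calls was not tested. Over randomly drawn genes, the simulated test recovered 84% of 16-fold changes in CDK18KO against WT, 72% in DKO against WT and 86% in DKO against CDK18KO.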

Other observations

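Gm28437, the pseudogene on chromosome 1 whose sequence equals the end of mt-Co3, had 127 counts in WT 4 and 123 in CDK18KO 3 and 0 to 5 in each of the other libraries. mt-Co3 itself had 7 counts in all. The neighbouring pseudogenes Gm28438, Gm10222 and Gm28661 had 0, 1 and 3 counts over the 14 libraries, and Gm29216, the copy of the end of mt-Co1, had 16.

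Markers of blood cells differed in level between the groups. Erythroid markers summed to 1722 to 10093 CPM in DKO, 535 to 1941 in CDK18KO and 566 to 2606 in WT, and neutrophil markers to 368 to 543, 5.56 to 97.2 and 41.4 to 274. DKO 4, which had the highest erythroid sum, also had the highest mitochondrial mRNA sum (21252 CPM). Other libraries did not follow: DKO 3, next in erythroid sum (5444 CPM), had a mitochondrial sum of 7320. CDK18KO 2, next in mitochondrial sum (18373 CPM), had an erythroid sum of 897. The part of blood in the members' values was not tested.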
